A study of Rattus norvegicus with 4 samples.

Results

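Of the 15923 probe sets of the array, 15 were annotated with exactly 1 symbol belonging to 1 of the 10 genes of the growth hormone and IGF axis, out of 10412 genes with such a probe set. The genes were Ghr, Prlr, Stat5b, Cish, Igf1, Igfals, Igfbp1, Igfbp2, Igfbp3 and Igfbp4, and each had at least 1 probe set. Probe sets were taken by gene name. The livers came from 4 Sprague-Dawley rats, male, untreated and 10 to 12 weeks old, and the RNA of each was hybridised to a separate Affymetrix array. The rats formed 1 control group, had free access to feed, and were kept with lights on by day. The time of day at which the livers were taken is not given in the sources used here. Without a second group, the data answer which genes of the axis gave a signal in male liver and how far the 4 animals differed.

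Growth hormone from the pituitary binds its receptor on hepatocytes and, through the kinase JAK2, activates the transcription factor STAT5B. STAT5B drives Igf1, whose product is the circulating growth factor, and Igfals, whose product holds IGF1 in a long-lived complex with the binding protein IGFBP3. The same factor induces Cish, an inhibitor that closes the loop. Adult male rats secrete growth hormone in pulses, and the pulses set the male pattern of liver P450 genes. Igfbp1 responds to further signals, since insulin represses it and fasting and glucocorticoids raise it.

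The start regions of Cish and Igfbp1 are shown because these were the genes of the axis that differed most between the rats. All 10 genes matched the RefSeq table of the assembly GRCr8, with 11 start windows of 300 bases (250 before the annotated start and 50 from it on), since Prlr had a pair of starts. Capitals mark each match on either strand to TTCNNNGAA, the palindrome that STAT5 binds, or to CAAAACA, the core of the insulin response element bound by FOXO factors. Matches to the motifs did not overlap in these windows.
Cish, chr8:116850719-116851018, + strand: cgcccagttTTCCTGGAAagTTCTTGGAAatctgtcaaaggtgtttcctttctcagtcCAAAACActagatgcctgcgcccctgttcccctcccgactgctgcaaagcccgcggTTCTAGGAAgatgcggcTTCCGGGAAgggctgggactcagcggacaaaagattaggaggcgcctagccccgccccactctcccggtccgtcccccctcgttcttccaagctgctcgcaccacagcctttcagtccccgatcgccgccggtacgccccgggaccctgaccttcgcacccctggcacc
Igfbp1, chr14:86261027-86261326, + strand: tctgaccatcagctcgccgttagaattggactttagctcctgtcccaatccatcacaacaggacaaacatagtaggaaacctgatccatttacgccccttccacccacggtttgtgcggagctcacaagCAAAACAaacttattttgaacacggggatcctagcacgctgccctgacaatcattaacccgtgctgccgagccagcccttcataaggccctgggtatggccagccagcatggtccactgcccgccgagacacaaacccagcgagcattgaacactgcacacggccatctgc

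Cish held 4 matches to TTCNNNGAA, which began 241, 230, 136 and 119 bases before the start, and 1 match to CAAAACA. Of all 33469 windows in the table, 8.87% held at least 1 match to the palindrome, 0.547% at least 2, and 2 windows at least 4. Igfbp1 held no match to the palindrome and 1 match to CAAAACA, which began 121 bases before the start. CAAAACA occurred in 6.28% of all windows, and among the axis genes also in Igf1 and in the first Prlr window. The second Prlr window held 1 palindrome. The remaining 3 matches are printed with 8 bases on each side, to set them beside those of Cish and Igfbp1.
Prlr, second window, chr2:60909475-60909499, + strand: aaaatgagTTCTAGGAAtaaagaat
Prlr, first window, chr2:60861555-60861577, + strand: aaattcacTGTTTTGcctccagc
Igf1, chr7:24172457-24172479, + strand: cccacccaCAAAACAacacatgt

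Ghr, Stat5b, Igfals, Igfbp2, Igfbp3 and Igfbp4 held neither motif in their windows, which says only that these letters are not within those 300 bases. The plot of motif matches shows the positions for all windows.

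**Figure D1:**
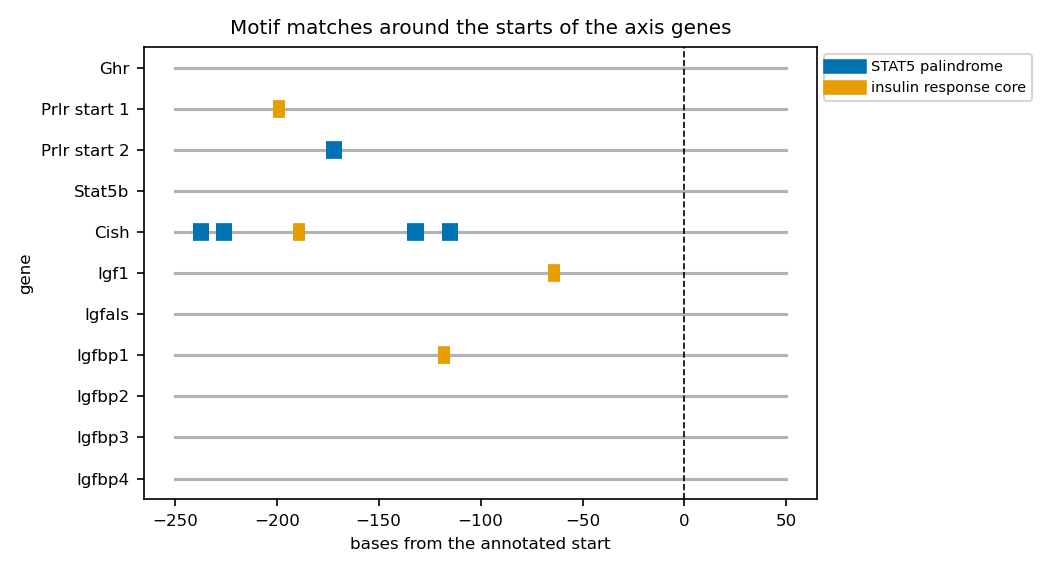
Matches to the STAT5 palindrome (blue) and to the insulin response core (orange) in the start windows of the axis genes, by distance in bases from the annotated start. Cish carries 4 palindromes, the second Prlr start 1, and the other windows none.

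Values are log2 signals as deposited, given for replicates 1 to 4 in that order and as mean ± SD over n = 4 rats. A signal of 8.25 served as background level. It is the 95th percentile over 57 probe sets for genes typical of brain, muscle, testis or eye. A gene counted as above background if 1 of its probe sets exceeded that level on average. Because probe sets differ in how strongly their probes bind, a position above or below this level describes signal and not amount of transcript, and levels of different genes are not compared. A probe set is called flat where its 4 values lay within 0.001 of each other. Flat probe sets made up 43.5% of the array, 49.7% of those below the background level, 35.2% of those above it and 15.2% of those above a signal of 10, and their values carry no measure of the animals.

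Of the hepatocyte markers, 6 of 6 genes were above background, with albumin (Alb) at 15.06 ± 0.02. Kupffer cell markers were above background for 3 of 3 genes, endothelial markers for 2 of 4, stellate cell markers for 2 of 6, red cell markers for 2 of 2, and bile duct, lymphocyte and neutrophil markers for 0 of 8. Of all genes, 50.5% were above background, or 33.6% without flat probe sets. Without flat probe sets the endothelial count was 1 of 4. In bulk liver, fewer cells of a type and less RNA per cell cannot be told apart. Each rat had 1 array, so a difference between animals cannot be told apart from one between arrays, and the rats are taken as separate animals as the design text states.

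Of the 10 genes of the axis, 7 were above background, against 50.5% of all genes. Without flat probe sets it was 6 of 10, against 33.6% of all genes. The genes above background were the growth hormone receptor, Igf1, Igfals and the 4 binding proteins. Cish, Stat5b and Prlr lay below. The 4 genes whose mean signal exceeded even a stricter level of 9.99, which results when the muscle myosin Myh1 is kept in the background list, were Ghr, Igf1, Igfals and Igfbp4. At that level 8.25% of all genes lay above background.

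Ghr encodes the growth hormone receptor and, by alternative splicing in rat, also the soluble growth hormone binding protein. Its probe set 1373803_a_at had signals of 9.95, 10.03, 9.96 and 10.20 (10.03 ± 0.12). The other, 1368924_at, had 8.63, 8.77, 8.73 and 8.98 (8.78 ± 0.15). Both were highest in replicate 4 and lowest in replicate 1, with a highest-to-lowest ratio of 1.19-fold and 1.27-fold. The SD exceeded that of 301 of 441 probe sets of like signal at 1373803_a_at and of 397 of 441 at 1368924_at. Without replicate 4, the SD was 0.042 at 1373803_a_at and 0.074 at 1368924_at, so more than 1.5 times smaller at both.

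Prlr, the prolactin receptor, is a close relative of Ghr and is known to be more abundant in female than in male rat liver. Its 3 probe sets were all below background. Probe set 1369493_at was flat at 8.22, just under the level, and 1370789_a_at was flat at 7.60. The third, 1370384_a_at, had signals of 7.17, 7.17, 7.20 and 7.16, the smallest spread of any axis probe set that was not flat. No female animals were measured, so the sex difference was not tested.

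Stat5b, the transcription factor of the growth hormone signal in liver, was represented by 1 probe set, which was flat at 8.05. Its paralog Stat5a had a signal of 8.85 in all 4 rats, above background but under the 9.06 of Syp, a gene of the background list. Jak2, the kinase bound to the receptor, was flat at 7.77. The Stat5a values spanned 0.0036, so differences between animals could not be read for any of these genes.

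Cish, the STAT5-induced inhibitor of cytokine receptors, had signals of 7.66, 7.60, 7.70 and 8.48 (7.86 ± 0.41). Replicates 1 to 3 lay within 0.10 of each other and below the background level, while replicate 4 lay above it. Of the 10 axis probe sets that were not flat, Cish was the 1 with a single rat far from the other 3 by Dixon's rule, against 5.14% of such probe sets on the array. No fold is given, since the other 3 rats lay below background. The SD exceeded that of 99.8% of 899 probe sets of like signal, a set that includes those below background and was chosen after the values were seen. Without replicate 4 the SD was 0.05.

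Among the other inhibitors and signal carriers, the pattern of Cish was not general. The related inhibitor Socs2, likewise induced by growth hormone, was highest in replicate 1, with 8.67, 8.07, 8.22 and 8.11. Its mean of 8.27 was just above the background level, and replicates 2 to 4 lay below that level. Socs3, induced by interleukin 6 signals, had 7.99, 7.86, 7.93 and 8.08, so it was highest in replicate 4 but below background. Stat3, the transcription factor of the interleukin 6 signal, was highest in replicate 4 at both probe sets. At 1370224_at it had 9.65, 9.61, 9.63 and 10.13, so that replicate 4 stood clear of the rest, and at 1371781_at 9.22, 9.23, 9.25 and 9.35. Of 16 signalling genes measured, 10 were above background (62.5%, against 50.5% of all genes), or 7 without flat probe sets and 0 at the stricter level of 9.99. Besides Stat3, Socs2 and Stat5a these included the adaptor Grb2 at 9.39 ± 0.09, the kinase Tyk2 at 8.90 ± 0.03, and the phosphatase Ptpn11, which acts downstream of the receptor, flat at 9.06. The median SD of the signalling probe sets that were not flat was 0.047, against 0.108 for those of the axis, without adjustment for signal.

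**Figure D2:**
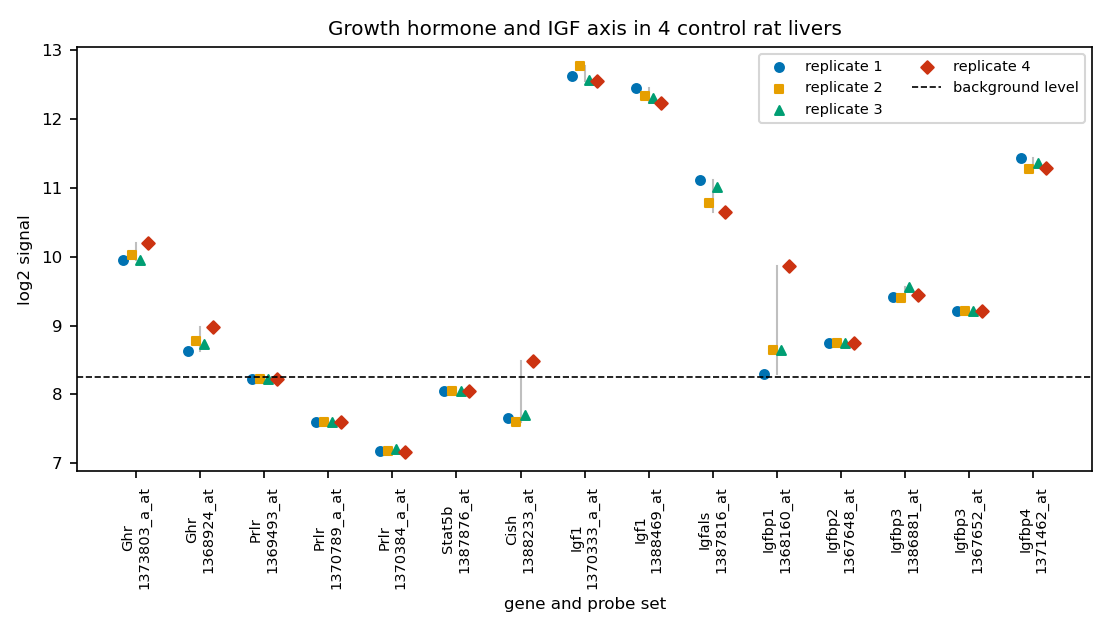
Log2 signal of the 15 axis probe sets in each of the 4 rats (points), with the range as a grey line and the background level of 8.25 as a dashed line. Igfbp1 and Cish show replicate 4 apart from the other rats, and the 5 flat probe sets show 4 equal values.

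Igf1, the growth factor made by hepatocytes in response to growth hormone, had signals of 12.63, 12.77, 12.57 and 12.55 (12.63 ± 0.10) at probe set 1370333_a_at. At 1388469_at it had 12.45, 12.34, 12.31 and 12.23 (12.33 ± 0.09). The highest rat differed between the probe sets, replicate 2 in one and replicate 1 in the other, and replicate 4 was lowest in both. The highest-to-lowest ratios were 1.17-fold and 1.16-fold. Spread of that size was ordinary, since it exceeded that of 61.2% and 56.2% of 441 probe sets of like signal. It also rested on single rats, with an SD of 0.041 at 1370333_a_at without replicate 2 and of 0.057 at 1388469_at without replicate 1.

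Igfals encodes the acid-labile subunit, which hepatocytes make under growth hormone control and which locks IGF1 and IGFBP3 into the circulating ternary complex. Its signals were 11.12, 10.78, 11.01 and 10.65 (10.89 ± 0.21). Replicates 1 and 3 were higher than replicates 2 and 4, and the highest-to-lowest ratio was 1.39-fold. The SD exceeded that of 84.4% of probe sets of like signal.

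The binding proteins of the axis gave 4 different pictures. Igfbp4, a hepatocyte product that inhibits IGF action, had 11.43, 11.27, 11.37 and 11.29 (11.34 ± 0.08). Igfbp3, the main carrier in plasma, which in rat liver comes from non-parenchymal cells, had 9.41, 9.40, 9.56 and 9.45 (9.45 ± 0.07) at 1386881_at, and was flat at 9.21 at 1367652_at. The Igfbp3 SD at 1386881_at was 0.03 without replicate 3. Igfbp2, which is raised by fasting and by low insulin, was represented by 1 probe set, flat at 8.75, so its response to the state of the animal could not be seen.

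Igfbp1 had the widest spread of the axis, with signals of 8.29, 8.65, 8.65 and 9.86 (8.86 ± 0.69). Replicate 1 was lowest, close to the background level, replicates 2 and 3 were equal to 2 decimals, and replicate 4 was highest, 1.21 above the next rat. The highest-to-lowest ratio was 2.97-fold, and replicate 4 was 2.31 times the median of the others, with the other 3 rats at signals that are close to background. Its SD exceeded that of all 441 probe sets of like signal above background. Without replicate 4 the SD was 0.211.

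Igfbp1 and Igfbp3 are neighbours in the GRCr8 gene table, with 0 annotated genes between them, and are transcribed toward each other. Igfbp1 spanned 1.57 log2 units over the rats, while Igfbp3 spanned 0.16 at 1386881_at, highest in replicate 3. The difference between the spans was not tested.

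Of the 10 axis probe sets that were not flat, 2 (Igfbp1 and Cish) had a range of at least 0.5, against 3.69% of all probe sets that were not flat. In limma's F test of between-rat variance across 4420 probe sets, 0 were called at an adjusted p of 0.05, or 0.0%, and 0 of the 8 axis probe sets tested. At an unadjusted p of 0.05, 184 were below, or 4.16%. Among the axis probe sets that of Igfbp1 was the 1 below (adjusted p = 0.945 by limma). Without replicate 4 it was not, and 0 of 8 were below. With flat probe sets kept, 2 of 10 were below, Igfbp1 and the Ghr probe set 1368924_at, against 610 of 6816 probe sets tested in that setting. Cish lay below background and was not in the test. The test set the variance of each probe set against a prior fitted to the same probe sets. It asks whether a probe set varied more than others of like signal, and not whether the rats differed. The share below an unadjusted p of 0.05 also depends on that fit. The prior had 1.75 degrees of freedom, and even the Igfbp1 SD, above all 441 of like signal, was not called. The differences between rats are descriptions of these 4 animals, and no probe set passed the test, which does not show that the rats were alike.

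**Figure D3:**
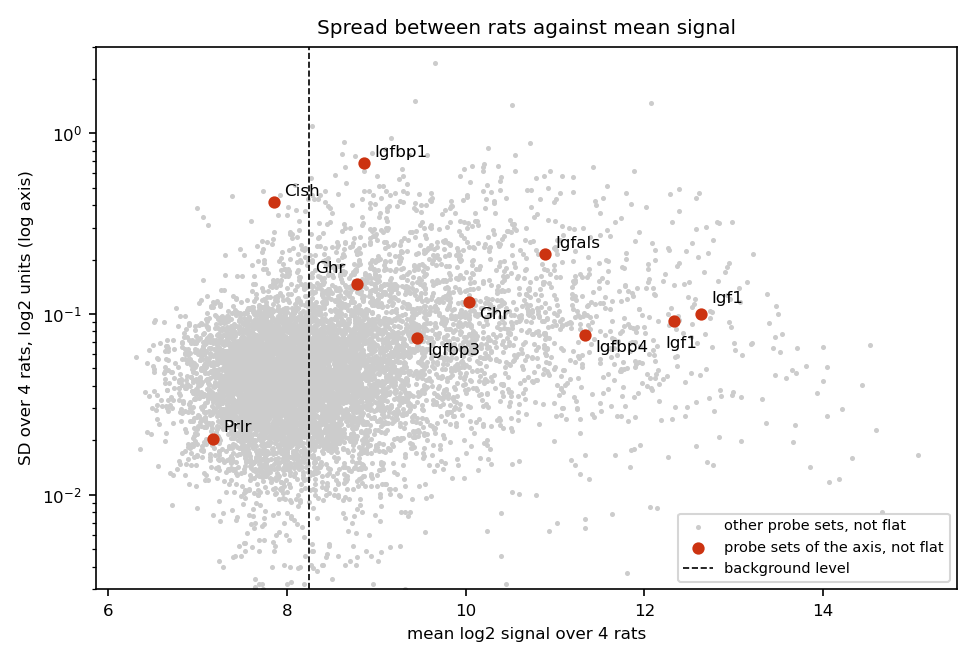
Between-rat SD in log2 units (log axis) against mean log2 signal for the probe sets that were not flat, with the axis in red and the background level dashed. A few probe sets lie below the drawn range of the SD axis. Igfbp1 (SD 0.69) and Cish (SD 0.41) lie at the upper edge for their signal, while Igf1, Igfbp3 and Igfbp4 lie among the bulk.

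Replicate 4 held the highest value in 4 of the 10 axis probe sets that were not flat, against 20.7% of all such probe sets on the array, and the lowest in 4 of 10, against 25.6%. The 4 highest were Igfbp1, Cish and both of Ghr. The 4 lowest were both of Igf1, Igfals and the Prlr probe set 1370384_a_at, which spanned only 0.05. In that animal the signals of the receptor and the inhibitor were the highest of the 4. Those of the growth factor and its acid-labile subunit were the lowest, with differences for Ghr and Igf1 of 0.35 log2 units or less. Igf1 in replicate 4 was close to replicate 3, at 12.55 against 12.57 at 1370333_a_at and 12.23 against 12.31 at 1388469_at. Counted by gene at the brightest probe set, replicate 4 was highest for 3 of 7 genes that were not flat and lowest for 2 of 7.

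By a margin of at least 0.5 above each other rat, a margin chosen after the values were seen, 13 of 9000 probe sets were highest in replicate 4, or 0.144%. The same number was found in replicate 1, so replicate 4 was not the only animal with such genes. Besides Igfbp1 and Cish, the named genes in replicate 4 were the metallothionein Mt2A (12.33, next 10.82), the homeobox factor Hhex (10.70, next 9.80), the MAP kinase phosphatases Dusp6 and Dusp1, and Sh3bp5, Net1, Gadd45a, Klf9 and Nupr1. Dusp6 was there with both of its probe sets. A further probe set, annotated with the symbols Mt1f, Ttr and Mt1 and so not assigned to 1 gene, had 12.57, 11.81, 10.20 and 13.69.

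The genes most like Igfbp1 across the 4 rats, by the root mean square difference of deviations over 3797 probe sets above background, were Dusp6 (8.91, 9.31, 8.76 and 10.18; difference 0.225), Hhex (9.80, 9.78, 9.79 and 10.70; 0.240) and Net1 (0.241). Those most like Cish were Hhex (0.047), Irf2bp2 (0.118) and Sh3bp5 (0.127). With 4 animals, these are the nearest profiles and no more.

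Genes responsive to insulin, fasting or glucocorticoids were set beside Igfbp1. Of 14 such genes measured, 12 were above background (85.7%, against 50.5% of all genes), and 3 at the level of 9.99. Of the 12 whose brightest probe set was not flat, 6 were highest in replicate 4, against 20.7% of probe sets on the array, and 5 were lowest in replicate 1, against 25.8%. The 6 include Pdk4 and Foxo1, which spanned only 0.04 and 0.10. Fkbp5, below background with a span of 0.11, is among the 5. The list was drawn up with earlier results of these data known, so these counts are descriptions. Pck1, the enzyme that starts gluconeogenesis and is repressed by insulin, had 12.27, 12.44, 12.63 and 12.96. Tsc22d3, a glucocorticoid target, had 8.42, 8.49, 8.89 and 9.03. Both were lowest in replicate 1 and highest in replicate 4, like Igfbp1. The share of the array with that order was not counted. All Tsc22d3 values lay under the 9.06 of Syp, a gene of the background list.

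The phosphatase Dusp1 was also lowest in replicate 1 (8.01) and highest in replicate 4 (9.94) at its brighter probe set, with 9.43 in replicate 2 and replicate 3 between replicates 1 and 2. Its other probe set, 1368147_at, lay below background and was highest in replicate 2. Angptl4, a lipase inhibitor raised by fasting, was highest in replicate 4 (9.53) but lowest in replicate 2 (8.19).

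Other genes of that list ran differently. Sgk1, a kinase induced by glucocorticoids, was lowest in replicate 4, with 8.81, 10.23, 9.76 and 8.67. Tat, an amino acid catabolic enzyme induced by glucocorticoids, was highest in replicate 3, with 9.52, 10.53, 11.10 and 10.30. Srebf1, which insulin induces, had 10.77, 11.53, 11.17 and 10.56, so the lowest in replicate 4. Fasn, its target in fatty acid synthesis, had 9.70, 9.66, 9.78 and 9.35, also lowest there. Feeding state and stress were not recorded per rat in the labels, and their part in the result was not tested.

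**Figure D4:**
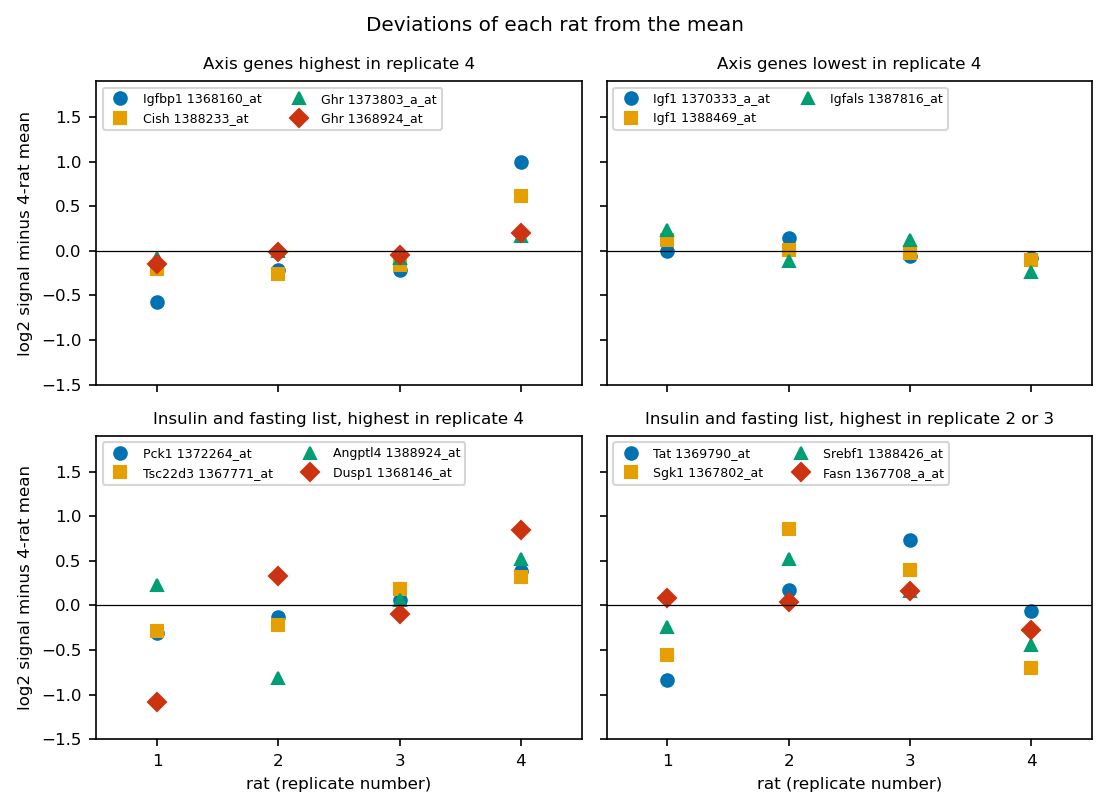
Deviation of each rat from the 4-rat mean in log2 units, by replicate number, for axis genes highest (upper left) or lowest (upper right) in replicate 4 and for 8 genes of the insulin and fasting list (lower panels). Igfbp1, Cish, Pck1, Tsc22d3, Angptl4 and Dusp1 are highest in replicate 4, while Tat, Sgk1, Srebf1 and Fasn are highest in replicate 2 or 3.

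Markers of other cell types were set beside these values. Median deviations in replicates 1 to 4 were -0.18, 0.26, 0.09 and -0.03 for 3 Kupffer cell probe sets, -0.04, 0.25, -0.44 and 0.23 for 4 stellate cell probe sets, and -0.01, 0.00, 0.01 and 0.01 for 7 hepatocyte probe sets. For 3 endothelial probe sets they were -0.04, 0.00, 0.04 and 0.04. The red cell marker Hbb had 11.91, 11.27, 11.64 and 11.00, lowest in replicate 4. Bile duct keratins Krt7 and Krt19 were below background and flat, and the bile duct marker Epcam, also below background, had 8.18, 8.29, 8.13 and 8.34, highest in replicate 4 by 0.05. The part of blood or of other cells in the Igfbp1 and Cish values was not tested.

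The growth hormone dependent list held male- or female-predominant liver genes and factors that regulate them. Of its 16 genes with a probe set, 12 were above background (75.0%, against 50.5% of all genes), and 8 at the level of 9.99. Both male- and female-predominant genes were among the 12, as were the factors Hnf4a and Foxa2, and no female was measured. Cyp2c11, the principal male P450, had 13.59, 13.55, 13.58 and 13.42, and Cyp2a2, another male P450, had 11.12, 11.52, 11.44 and 11.43. Ca3, a carbonic anhydrase more abundant in males, was at 13.06 ± 0.14. Cyp2c11 was lowest in replicate 4, as Igf1 and Igfals were, while Cyp2a2 was lowest in replicate 1. The male P450 Cyp3a2 was highest in replicate 4, at 12.91 against 12.69 to 12.73 in the other rats. Over the list, 2 of 16 genes were lowest in replicate 4, against 25.6% of probe sets on the array, and 2 of 16 were highest there, against 20.7%.

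The spread of the list was uneven. Cyp2c12, the female P450 that continuous growth hormone induces, had 9.89, 9.09, 10.10 and 9.35, a range of 1.01. Onecut1, the factor HNF6 that activates Cyp2c12, had 8.30, 7.46, 8.11 and 7.55 at 1371034_at and 7.82, 7.45, 7.93 and 7.48 at 1387760_a_at. Replicates 1 and 3 were higher than replicates 2 and 4 at all 3 of these probe sets, as they were for Igfals. This split was picked out from the values themselves, and its share over the array was not counted. Both Onecut1 probe sets measure the same gene. The mean signals of Onecut1 were below background, and Hbb was also higher in replicates 1 and 3 (11.91 and 11.64) than in 2 and 4 (11.27 and 11.00), as was the red cell gene Alas2 (8.43 and 8.40 against 8.22 and 8.28). The part of blood in this pattern was not tested.

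Cux2, a repressor of male genes found in female liver, had a signal of 7.06 ± 0.06, below background. A1bg, a female-predominant plasma protein of rat, had 7.58 ± 0.04, also below background. The female-predominant P450 genes Cyp2c7 (13.37, 13.25, 12.90 and 13.32) and Cyp2a1 (9.25 ± 0.21) were above it. Among the factors of hepatocytes, Hnf4a was at 9.67 ± 0.21, lowest in replicate 4 (9.38), and Foxa2 at 8.75 ± 0.17, highest there (8.96).

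Of 15 further genes of the IGF system and of hormones upstream of it, 7 were above background (46.7%, against 50.5% of all genes), and 0 at the level of 9.99. These were the IGF1 receptor Igf1r at 8.40 ± 0.04, the IGF2 scavenger receptor Igf2r at 8.82 ± 0.07, the binding proteins Igfbp6 (8.58 ± 0.02) and Igfbp7 (9.92 ± 0.14), the protease Htra1 at 9.92 ± 0.03, the insulin receptor related Insrr at 8.74 ± 0.02, and Ghrhr at 8.36 ± 0.04. Ghrhr, the receptor for the hypothalamic releasing hormone, and Insrr are not known as liver genes, so a signal at this height does not by itself show that a transcript was there. The same limit holds for Igf1r and Igfbp6 and, in the axis, for Igfbp2 (8.75), for the Ghr probe set 1368924_at (8.78) and for Igfbp1 in replicates 1 to 3 (8.29 to 8.65). Since Syp of the background list gave 9.06, it holds also for Igf2r (8.82), Stat5a (8.85), Tyk2 (8.90) and Ptpn11 (9.06). Among other list genes it holds for Foxa2 (8.75) and Tsc22d3 (8.71).

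Igf2, the fetal growth factor, was below background at all 4 of its probe sets (7.64 to 8.22), and Igfbp5 at all 3 of its own. The insulin receptor Insr was flat at 8.02. The pituitary hormones Gh1 (7.90) and Prl (7.50) and hypothalamic Sst (7.83) were flat and below background, and Ghrh (7.58) was below it too. The median SD of the probe sets that were not flat was 0.03 in this list. It was 0.173 in the list of growth hormone dependent genes and 0.291 in the insulin and fasting list. Spread on this array varied with signal, with a median SD of 0.043 among probe sets of the signal of Cish and 0.084 at that of Igf1. The list medians were not adjusted for this.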

How the data were processed

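Liver RNA of 4 rats was hybridised to Affymetrix arrays, 1 array a rat. The authors deposited 1 log2 signal for each of 15923 probe sets, and each array's median was 8.11. The submitters' processing notes name R 2.4.1 and affy 1.12.2 together with GCRMA and RMA, without a role or order, so the method behind the values is not known here. The labels' protocol names another version of the rat array than the scanner settings do, and the annotation used covers the probe sets of the values. The number of arrays limits the precision.

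Members and lists were chosen with earlier results of these data known. Probe sets were taken by symbol, gene number or older synonym. The background level was the 95th percentile over 57 probe sets of 47 genes, of 54 listed. Myh1 was left out of that list because its probe sets were known to be bright. The highest of the 57 was Syp, a synaptic gene, at 9.06, and the next 8.28. Spread was compared among probe sets above background that were not flat, in 10 classes of mean signal. Variance was tested with limma 3.58.1 in R 4.3.3 against a robust trended prior with 3 residual degrees of freedom and Benjamini-Hochberg adjustment. Python 3.11.15, numpy 2.4.6 and pandas 2.3.3 did the rest. All members were named, with list genes set beside them by role, and the 3 nearest profiles of members with a range of at least 0.5. Alternatives covered the background level, the probe set of a gene, the scaling, the prior, flat probe sets and leaving out each rat.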

Additional observations from a re-analysis of the deposited data

Results flagged for a closer look

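Among 98 sets of 4 values (axis, list and marker probe sets that were not flat), 5 had 1 rat with a large gap to the other 3, and chance gives about 5%. Over the array it was 5.14%. Cish in replicate 4 had a log2 signal of 8.48, against 7.60 to 7.70 in the other rats. Stat3 in replicate 4 had 10.13 at 1370224_at, against 9.61 to 9.65. Cyp3a2, a male-predominant P450, had 12.91 in replicate 4, against 12.69 to 12.73. Apoa1 in replicate 1 had 12.34, against 12.92 to 13.03. Cps1 in replicate 3 had 12.67, against 12.41 to 12.44. Igfbp1 did not meet this rule, since its other 3 rats also spread.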

How the results depend on the processing

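With Myh1 kept in the background list the level was 9.99, and 4 of 10 axis genes lay above it (8.25% of all genes), with 0 of 16 signalling genes, 0 of 15 IGF system genes and 3 of 14 insulin and fasting genes. With the highest Bacillus control probe set as the level (7.75), all 10 axis genes and 13 of 15 IGF system genes lay above, against 79.6% of all genes. In the other planned settings the axis count was 7, and 6 without flat probe sets, an alternative added after seeing the data. Leaving out each rat gave 7 axis genes, 9 to 10 signalling, 7 IGF system, 12 growth hormone dependent and 12 insulin and fasting genes. The variance test called 0 probe sets in each setting run, with the smallest adjusted p by limma between 0.257 and 0.972. Of 60 alternative SDs, 8 differed by over 1.5 times, all from leaving out 1 rat and 0 of 20 from scaling. Besides those given with the genes, the Prlr SD at 1370384_a_at was 0.007 without replicate 3. Percentiles of spread fell to 26.7 for Ghr at 1373803_a_at without replicate 4, to 26.4 for Igf1 at 1370333_a_at without replicate 2 and to 20.8 for Igfbp3 at 1386881_at without replicate 3. No paired analysis was possible because there is 1 group.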
